A study of Homo sapiens with 96 samples.

Results

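Dehydroepiandrosterone (DHEA) and androstenedione are the steroids that the adrenal cortex releases as precursors of active androgens, and here each was added to LAPC4 cells together with the synthetic androgen R1881. They were chosen by the treatment named in the array titles, and 6 of the 96 arrays of the series carried one of them, 3 per compound. LAPC4 is a human prostate cancer cell line that responds to androgens, and expression was measured on Illumina HT-12 v4 arrays. The groups used were 20 uM DHEA with 0.33 nM R1881 (3 arrays), 10 uM androstenedione with 0.33 nM R1881 (3 arrays), 0.33 nM R1881 alone (6 arrays) and the solvent DMSO alone at 0.05% (6 arrays), each after an exposure of 6 h. Finasteride and cyproterone acetate (20 uM each) and progesterone (10 uM), given with the same R1881 (3 arrays each), were used as steroids of an equal dose, and dihydrotestosterone and testosterone propionate (0.5 uM each, with R1881, 3 arrays each) as stronger androgens. All groups except DMSO received R1881, so a comparison with R1881 alone shows what a compound did in the presence of an androgen. Every array came from 1 cell line grown in medium with serum.

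In steroid-forming tissues, DHEA is turned into androstenedione by the hydroxysteroid dehydrogenases HSD3B1 and HSD3B2, which oxidise the hydroxyl group on its A ring to a ketone and move the double bond from the B ring into the A ring. Both molecules keep a ketone on the D ring. Reduction of that ketone in androstenedione gives testosterone, which 5-alpha-reductases turn into dihydrotestosterone, the most active natural androgen. Androgens raise genes such as kallikreins, FKBP5 and SGK1 in prostate epithelium. Androgens leave these cells mostly as glucuronides, made by enzymes of the UGT2B family.

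The promoters of 4 of the 5 genes that differed between DHEA with R1881 and R1881 alone are shown here because these genes carry the result below. Each runs from 250 bases before to 50 bases after the transcript start in the RefSeq table of build GRCh38.p14, read in the direction of transcription. Capitals mark the half-site of the DNA element that androgen and glucocorticoid signalling share, AGAACA or its complement TGTTCT, which was searched on both strands. They lie at chr4:69214699-69214998 (UGT2B11, minus strand), chr14:80211455-80211754 (DIO2, minus strand), chr4:6693628-6693927 (S100P, plus strand) and chr6:35728534-35728833 (FKBP5, minus strand). For UGT2B11 and DIO2 the start in that table lies inside the span of the gene given below, not at its end.
UGT2B11: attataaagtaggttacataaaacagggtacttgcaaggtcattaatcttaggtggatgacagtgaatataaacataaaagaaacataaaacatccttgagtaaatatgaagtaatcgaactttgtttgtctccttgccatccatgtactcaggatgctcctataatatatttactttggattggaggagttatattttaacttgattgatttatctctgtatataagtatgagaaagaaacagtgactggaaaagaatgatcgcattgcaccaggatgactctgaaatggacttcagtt
DIO2: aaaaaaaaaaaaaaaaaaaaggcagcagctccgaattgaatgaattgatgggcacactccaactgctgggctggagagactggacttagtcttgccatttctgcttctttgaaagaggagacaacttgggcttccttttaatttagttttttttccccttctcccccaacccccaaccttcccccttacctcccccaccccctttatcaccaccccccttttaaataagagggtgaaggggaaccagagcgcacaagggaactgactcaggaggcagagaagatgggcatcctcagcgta
S100P: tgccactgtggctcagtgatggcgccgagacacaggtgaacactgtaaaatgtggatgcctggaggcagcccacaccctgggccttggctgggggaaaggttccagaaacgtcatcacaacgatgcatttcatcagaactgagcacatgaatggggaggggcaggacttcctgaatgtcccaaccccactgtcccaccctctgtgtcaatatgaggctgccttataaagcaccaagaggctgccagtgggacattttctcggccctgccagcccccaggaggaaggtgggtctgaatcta
FKBP5: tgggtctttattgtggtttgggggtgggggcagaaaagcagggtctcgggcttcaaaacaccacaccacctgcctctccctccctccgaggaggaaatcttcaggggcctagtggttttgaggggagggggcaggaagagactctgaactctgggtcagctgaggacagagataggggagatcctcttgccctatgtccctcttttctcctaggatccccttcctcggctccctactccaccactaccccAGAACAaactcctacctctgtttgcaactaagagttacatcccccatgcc
Of these windows, that of FKBP5 held the half-site, at the first base of the transcript. The half-site lay in 14.9% of all 27305 promoters of the table and in 1 of the 18 promoters available for the 22 genes that R1881 raised (5.56%).

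The arrays were split into 2 clusters, a number set in advance, and the split did not follow the treatments. On the 2000 most variable genes the first 2 principal components held 51.4% and 26.1% of the variance. On these components the arrays were divided into cluster A (34 arrays) and cluster B (62 arrays). Cluster A held 11 arrays numbered 1 and 23 numbered 3, and cluster B held 21 numbered 1, 32 numbered 2 and 9 numbered 3. DHEA array 3 lay in cluster A and DHEA arrays 1 and 2 in cluster B, androstenedione arrays 1 and 3 in A and array 2 in B, and of both R1881 and DMSO arrays 3 and 3b in A and the other 4 in B. Values inside each cluster are given beside the main results. Cluster A holds 1 DHEA array and R1881 arrays 3 and 3b, which may be repeat runs, and cluster B holds 1 androstenedione array. Values inside clusters therefore rest on few arrays and are descriptions, not tests. None of the 18 arrays of these 4 groups was among the 8 arrays of the series that correlated under 0.9 with their cluster's profile. Luminal prostate markers were measured for 12 of 15 genes, 7 of them above a log2 value of 8, and their mean per array was 8.82 to 9.05 with DHEA, 8.91 to 9.06 with androstenedione and 8.70 to 9.05 with R1881 alone. No basal marker (9 of 12 measured) and no immune marker (7 of 8 measured) reached 8. Of the neuroendocrine markers ENO2 did so (8.44), as did ACTA2 of the stromal markers (9.83).

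DHEA lowered 5 genes that R1881 raises, and no gene passed the test with androstenedione at its lower dose. Against R1881 alone with DHEA, 5 genes passed the threshold (limma, Benjamini-Hochberg adjusted p under 0.05 over 18571 genes) and all were lower with DHEA: UGT2B11, DIO2, S100P, FKBP5 and NDRG1, by 2.78- to 3.73-fold as measured. With DHEA, UGT2B11 and DIO2 were near the array median of 6.72, where the distance above background is not known, so their folds are those of the measured values only. The 5 called genes were 0.0269% of the genes tested, and 0 genes were called higher, with 48 genes higher (0.258%) and 105 lower (0.565%) at an unadjusted p under 0.05. With androstenedione 0 genes were called in either direction (0%) by the same limma test, with 34 higher and 34 lower (0.183% each) at an unadjusted p under 0.05. For both compounds these shares lie well under the 5% that p-values give on average when no gene differs, so this fit calls few genes. The 0 calls with androstenedione therefore do not show the absence of an effect, and some other fits gave calls, as listed at the end. In RNA from whole cultures, a lower level per cell and fewer cells that express a gene cannot be told apart. Both comparisons use the same 6 R1881 arrays, and DHEA against androstenedione was not tested, since the doses differed. Control arrays of the same number may be repeat runs. The SD of the difference was 0.346 for R1881 arrays 2 and 2b and 0.0929 to 0.17 for the other such pairs. With control arrays of the same number averaged, UGT2B11 and DIO2 remained called with DHEA, and S100P, FKBP5 and NDRG1 did not.

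UGT2B11, a glucuronosyltransferase of the family that inactivates androgens (chromosome 4, 69199951 to 69224984, GRCh38.p14), showed the smallest p. Its log2 levels were 6.81, 6.66 and 7.09 with DHEA, 8.41, 8.28 and 8.18 with androstenedione, 8.19 to 8.61 with R1881 alone (median 8.57) and 6.71 to 6.88 with DMSO (median 6.78). The DHEA arrays lay below every R1881 array and overlapped the DMSO arrays, and the androstenedione arrays overlapped those of R1881. DHEA differed from R1881 alone by -1.63 (SE 0.13, limma adjusted p = 1.83e-14), and by -1.48 inside cluster A and -1.70 inside cluster B. Against DMSO the difference of DHEA with R1881 was 0.07, with a 95% interval of -0.20 to 0.34. A dimmer probe of UGT2B11 gave -0.72 against R1881 alone. UGT2B28, a close relative that conjugates androgens, had 6.54, 6.49 and 6.58 with DHEA, against 6.89 to 7.69 with R1881 alone (median 7.41), and missed the threshold (-0.81, adjusted p = 0.0658). The 2 sequences are alike, and cross-hybridisation between their probes was not tested.

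DIO2, the deiodinase that turns thyroxine into the active thyroid hormone (chromosome 14, 80197526 to 80231057), stood at 6.91, 6.89 and 6.87 with DHEA, 8.55, 8.67 and 8.66 with androstenedione, 8.25 to 8.56 with R1881 alone (median 8.32) and 6.64 to 6.89 with DMSO (median 6.88). The difference of DHEA from R1881 alone was -1.48 (SE 0.23, adjusted p = 0.000152), -1.54 inside cluster A and -1.45 inside cluster B. As for UGT2B11, the DHEA arrays were at the level of DMSO and the androstenedione arrays at or just above that of R1881. A second, dim probe of DIO2 gave -0.16.

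S100P, a calcium-binding protein (chromosome 4, 6693878 to 6697170), was at 7.35, 7.27 and 7.26 with DHEA, 8.73, 9.57 and 8.81 with androstenedione, 8.46 to 9.24 with R1881 alone (median 8.73) and 7.12 to 7.64 with DMSO (median 7.32). The DHEA arrays lay inside the range of the DMSO arrays, and the difference from R1881 alone was -1.51 (SE 0.28, adjusted p = 0.0055), -1.30 inside cluster A and -1.61 inside cluster B. FKBP5, a co-chaperone that binds steroid receptors and is a standard readout of androgen and glucocorticoid action (chromosome 6, 35573590 to 35728583), was at 9.79, 9.81 and 9.75 with DHEA, 11.11, 11.33 and 11.30 with androstenedione, 10.95 to 11.62 with R1881 alone (median 11.31) and 9.29 to 9.46 with DMSO (median 9.38). Here the DHEA arrays were below every R1881 array and above every DMSO array, with -1.49 against R1881 alone (SE 0.28, adjusted p = 0.00565) and 0.41 against DMSO (95% interval -0.15 to 0.97). Inside clusters A and B the difference from R1881 alone was -1.25 and -1.61.

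NDRG1, a gene induced by androgens and by low oxygen (chromosome 8), had 9.05, 9.45 and 9.78 with DHEA, 10.74, 11.65 and 10.77 with androstenedione, 10.88 to 11.87 with R1881 alone (median 11.25) and 8.68 to 10.24 with DMSO (median 9.59). It differed by -1.90 (SE 0.38, adjusted p = 0.0145), but more inside cluster B (-2.30) than inside cluster A (-1.11), and its DMSO arrays are spread over more than 1 log2 unit. Leaving out any 1 DHEA array kept UGT2B11 and DIO2 under the threshold and lost S100P, FKBP5 and NDRG1, with adjusted p-values of 0.0709 to 0.577. Leaving out R1881 array 2 or 2b lost NDRG1 (adjusted p = 0.0671 and 0.0615). With the replicate number as a block the count was 9, and UGT2B28 (adjusted p = 0.0131), CLDN8 (0.0323) and SGK1 (0.0379) were then lower and SYTL2 higher (0.0488).

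**Figure D1:**
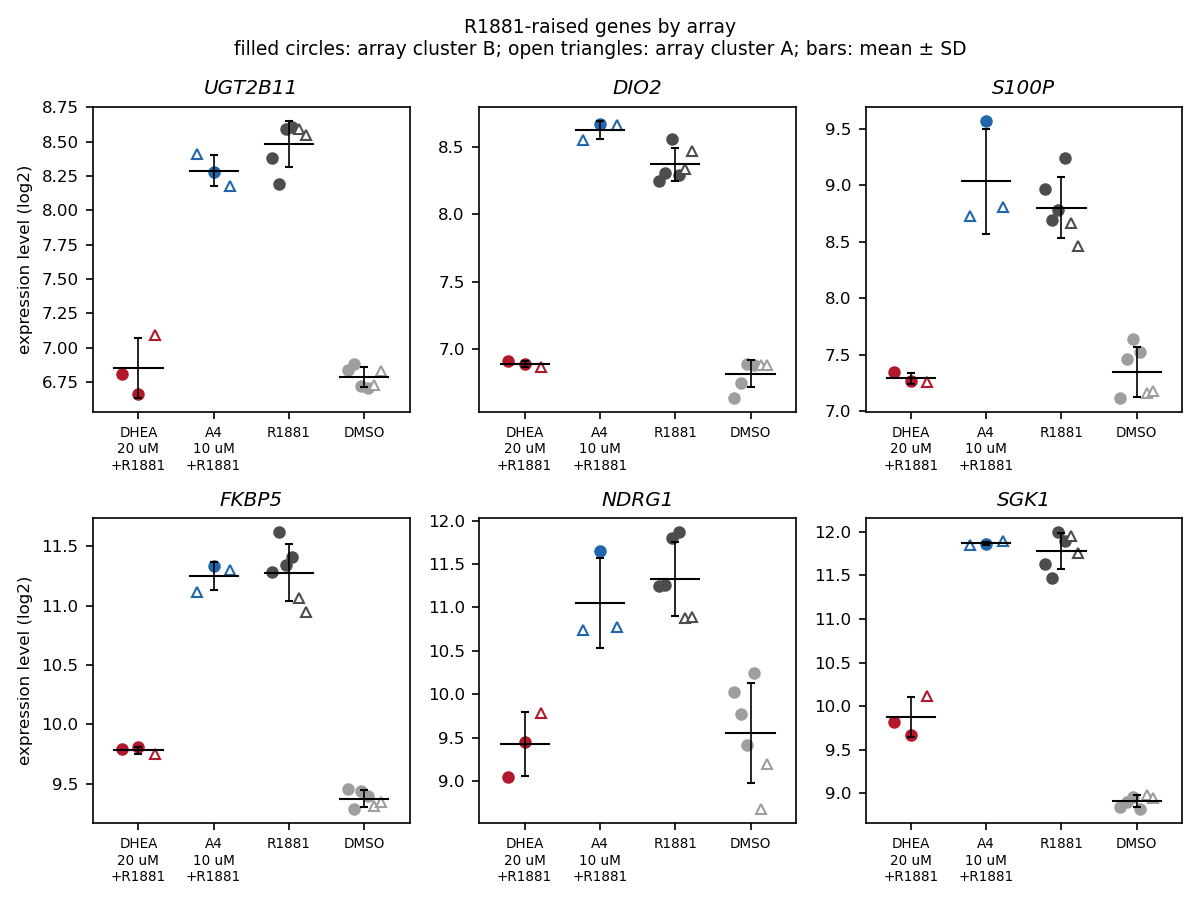
Log2 expression level of UGT2B11, DIO2, S100P, FKBP5, NDRG1 and SGK1 in each array (y axis) for DHEA 20 uM with R1881, androstenedione (A4) 10 uM with R1881, R1881 alone and DMSO (x axis), with group means ± SD as bars, circles for array cluster B and triangles for cluster A. For each gene the DHEA arrays lie below all R1881 arrays, and the androstenedione arrays lie at the level of R1881.

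SGK1, a kinase that steroid receptors induce, had the largest drop and the largest response to R1881. It was at 9.82, 9.67 and 10.12 with DHEA, 11.85, 11.86 and 11.89 with androstenedione, 11.47 to 12 with R1881 alone (median 11.82) and 8.82 to 8.98 with DMSO (median 8.93). The 4 groups do not overlap except for androstenedione and R1881, and DHEA lies between DMSO and R1881. The difference of -1.91 from R1881 alone (SE 0.43) did not pass over all genes (adjusted p = 0.068), nor did the difference of 0.96 from DMSO (unadjusted p = 0.0274, adjusted p = 1). Inside clusters A and B it was -1.74 and -2.0 against R1881 alone. Other bright SGK1 probes gave -1.95 and -1.90 against R1881 alone.

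R1881 itself raised 22 genes over DMSO (0.118% of 18571) and lowered 1, CAMK2N1 (-0.85, adjusted p = 0.0263). With control arrays of the same number averaged, since these may be repeat runs, 5 genes were called in place of 23. The 22 were selected on the same R1881 arrays that serve as the reference for both compounds, so their position below is a description. With DHEA all 22 were lower than with R1881 alone, with a median log2 difference of -1.09 (-0.004 over all genes) and a range of -1.91 (SGK1) to -0.16 (ZFP36). Of the 22, 5 were called, 20 lay below the R1881 arrays inside both clusters (2.09% of all genes), 20 had an unadjusted p under 0.05 (0.565% of all genes in this direction), and for 18 the DHEA arrays did not overlap those of R1881 (0.91% of all genes). The medians were -1.10 inside cluster A and -1.03 inside cluster B, and ZFP36 was the one gene with a positive difference in cluster A. With androstenedione the median of the 22 was -0.04 (-0.013 over all genes), 15 were negative and 0 were called, with a range of -0.53 (KLK4) to 0.79 (NPPC).

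**Figure D2:**
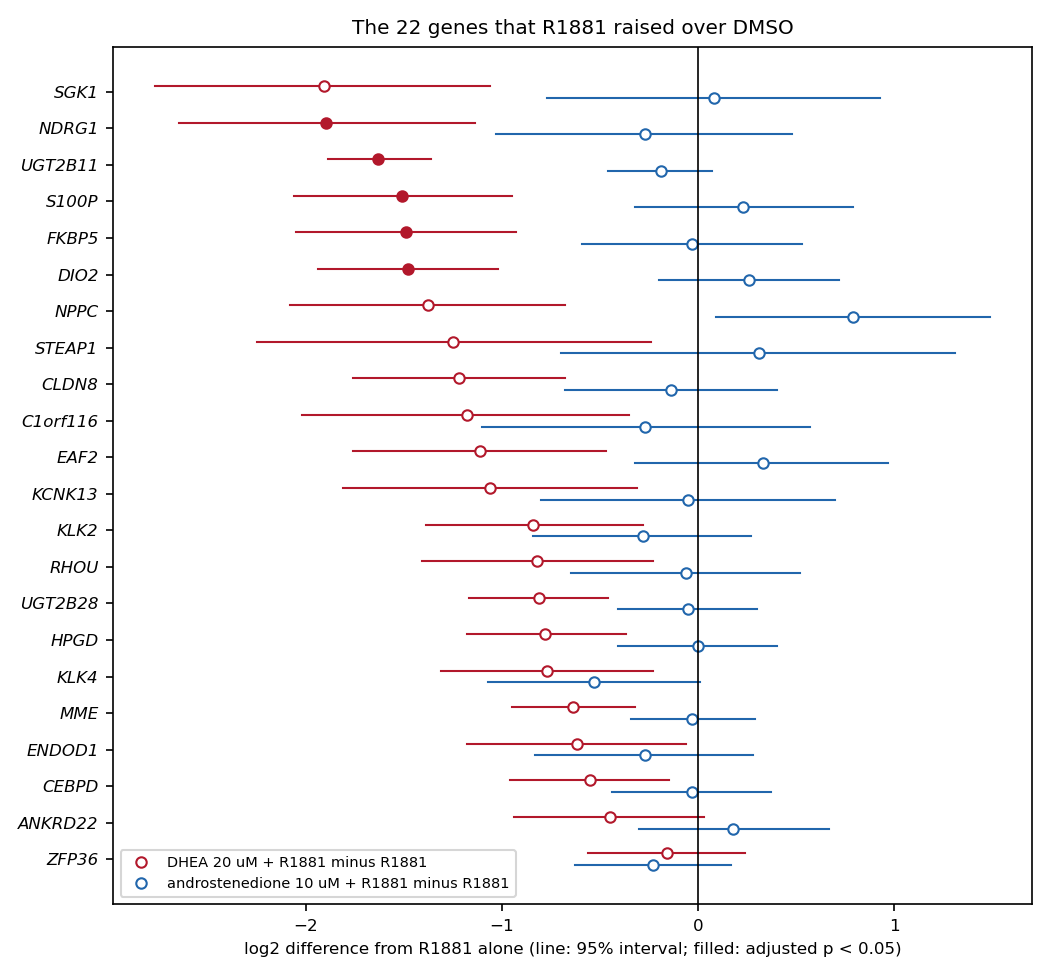
Log2 difference from R1881 alone (x axis) for the 22 genes that R1881 raised over DMSO (y axis, ordered by the DHEA difference), for DHEA 20 uM with R1881 and androstenedione 10 uM with R1881, with 95% intervals as lines and filled points where the adjusted p was under 0.05. The DHEA points run from -1.91 to -0.16, and the androstenedione points from -0.53 to 0.79.

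No gene for a secreted or membrane protein of prostate epithelium passed the test apart from those above. KLK2, a kallikrein protease close to prostate-specific antigen, had 7.23, 7.54 and 7.36 with DHEA, 7.81, 8.15 and 7.83 with androstenedione and 7.89 to 8.69 with R1881 alone (median 8.19). The DHEA difference was -0.84 (SE 0.28, adjusted p = 1), -0.54 inside cluster A and -0.99 inside cluster B, and the groups did not overlap. The protease genes KLK4 (-0.77) and TMPRSS2 (-0.55) overlapped between DHEA and R1881 over all arrays. Inside clusters A and B the differences were -0.32 and -0.99 for KLK4 and -0.56 and -0.55 for TMPRSS2. Both lay below the R1881 arrays in each cluster, as 2.09% of all genes did. KLK3, which encodes prostate-specific antigen, was dim in all groups (6.60 to 6.79 with DHEA, 6.59 to 7.03 with R1881 alone). CLDN8, a tight-junction claudin, had 7.23, 6.82 and 7.27 with DHEA, 8.22, 8.18 and 8.16 with androstenedione and 8.02 to 8.54 with R1881 alone (median 8.41), a DHEA difference of -1.22 with an adjusted p of 0.067, -1.20 inside cluster A and -1.23 inside cluster B. STEAP1, a membrane metalloreductase (-1.25), and MME, the protease neprilysin (-0.64), also had negative differences that did not pass.

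Among signalling and regulatory genes, NPPC, which encodes a natriuretic peptide, had 7.62, 7.43 and 7.15 with DHEA, 9.53, 9.89 and 9.31 with androstenedione and 8.32 to 9.14 with R1881 alone (median 8.76). The compounds lay on opposite sides of R1881, with -1.38 for DHEA (adjusted p = 0.33) and 0.79 for androstenedione (unadjusted p = 0.0267), and neither passed. Inside clusters A and B the differences were -1.32 and -1.41 with DHEA and 0.94 and 0.95 with androstenedione. In both clusters the androstenedione arrays of DIO2, NPPC and S100P lay above those of R1881 (3 of the 22, 3.91% of all genes) and those of KLK2 below (1 of the 22, 7.38%). C1orf116, an androgen-regulated gene also called SARG, had 9.49, 9.72 and 9.43 with DHEA and 9.99 to 11.13 with R1881 alone (median 11.01), a difference of -1.18 that was -0.63 inside cluster A and -1.46 inside cluster B. EAF2, a transcription elongation factor partner (-1.11), SPDEF, an ETS factor of luminal cells (-1.18), and HPGD, which inactivates prostaglandins (-0.78), were below the R1881 arrays without passing. In the opposite direction, SYTL2, a vesicle-trafficking protein, had 8.79, 8.73 and 9.03 with DHEA, 7.98, 7.93 and 8.16 with androstenedione, 7.92 to 8.36 with R1881 alone (median 8.12) and 8.58 to 8.88 with DMSO (median 8.70), so the DHEA arrays lay above every R1881 array (0.72, adjusted p = 0.62).

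The same genes can be placed on a scale where 0% is the mean of DMSO and 100% the mean of R1881 alone. With DHEA the 22 genes had a median position of 26.2%, from -7.33% (NDRG1) to 79.3% (ZFP36). UGT2B11 (4.1%), DIO2 (4.65%), S100P (-3.6%) and MME (1.3%) lay at the DMSO end, FKBP5 at 21.7%, SGK1 at 33.5% and C1orf116 at 49.8%. The DMSO levels of UGT2B11, DIO2 and MME are near the array median of 6.72, where the distance above background is not known, so their positions are not set against those of brighter genes. The arrays of 1 group agreed closely for FKBP5 (SD 1.56 percentage points) and SGK1 (SD 7.97) but not for ZFP36 (SD 76.3). With androstenedione the median was 96.1%, from 54.3% (KLK4) to 142% (NPPC). Side by side, without a test because the doses differ, the medians were 96.6% for testosterone propionate and 118% for dihydrotestosterone, both at 0.5 uM. Testosterone propionate array 2 stands apart (correlation of 0.303 with its cluster), and without it the median was 117%. At 20 uM finasteride had 25.6% and cyproterone acetate 69%, and progesterone at 10 uM had 66.7%, or 78.4% without array 3, which stands apart as well.

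**Figure D3:**
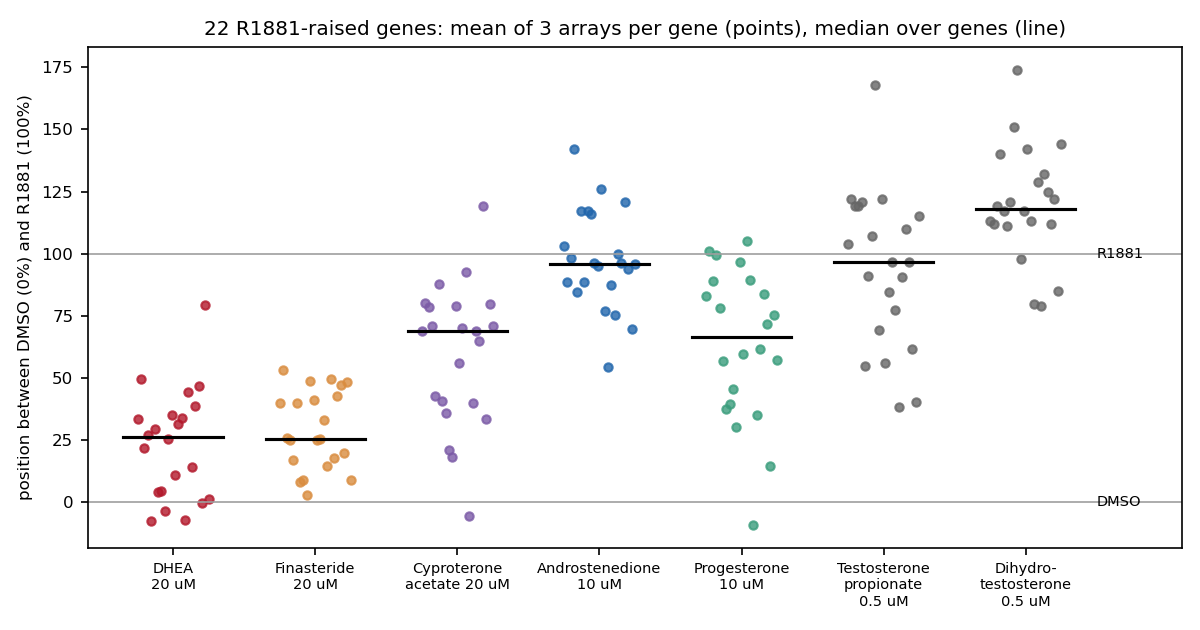
Position of each of the 22 R1881-raised genes between DMSO (0%) and R1881 alone (100%) on the y axis, as the mean of 3 arrays per gene (points) with the median over genes (line), for 7 steroids given with R1881 (x axis, with doses). DHEA has a median of 26.2% and finasteride of 25.6%, and androstenedione has 96.1%.

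Set directly against DMSO, DHEA with R1881 had 0 genes past the threshold in either direction (limma, 44 higher and 60 lower of 18571 at an unadjusted p under 0.05). These 0 calls do not show the absence of a difference. SGK1 passed in 5 of 28 alternatives and C1orf116 in 2 of 28, while FKBP5, UGT2B11 and NDRG1 passed in 0. The largest differences among the androgen genes were C1orf116 (1.17, unadjusted p = 0.00652) and SGK1 (0.96). Androstenedione with R1881 had 10 genes higher than DMSO (0.0538%) and 0 lower. These were SGK1 (2.96), NPPC (2.68), C1orf116 (2.09), FKBP5 (1.87), DIO2 (1.81), S100P (1.69), EAF2 (1.58), UGT2B11 (1.51), RASD1, a Ras-related protein (1.34), and ORM1, an acute-phase glycoprotein (0.44). The 5 with the firmest calls, UGT2B11, DIO2, NPPC, SGK1 and FKBP5, stayed under the threshold without any single array. Without androstenedione array 2, S100P (adjusted p = 0.062) and C1orf116 (0.692) were lost. EAF2 was lost without androstenedione array 1 (0.366), androstenedione array 3 (0.57) or DMSO array 1b (0.0577), and ORM1 and RASD1 were kept in 1 of 9 omissions each.

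Wider lists were read by their counts. A list of 65 genes that androgens induce had 57 measured members, of which 4 were lower with DHEA (0.0269% of all genes) and 0 higher. Of the 57, 52 had a negative difference, and the median was -0.31 (-0.004 over all genes). Members such as SGK1, FKBP5, DIO2, S100P and NPPC are also among the 22 genes selected on these same R1881 arrays. The values of this list therefore partly repeat those of the 22 and are a description. With androstenedione 0 of the 57 were called, 31 were positive and the median was 0.05. A list of 21 genes that androgens repress in other settings held UGT2B11, UGT2B28 and CLDN8, which rose with R1881 in these cells, and 1 of its members (UGT2B11) was called with DHEA, at a list median of -0.04. Glucocorticoid-response genes (25 of 26 measured) had 1 call, FKBP5, which is also on the androgen list, and a median of -0.11 with DHEA, and 0 calls and -0.03 with androstenedione. With DHEA 7 of the 25 lay below the R1881 arrays inside both clusters (FKBP5, SGK1, ZBTB16, ERRFI1, KLF9, CEBPD and PDK4, 2.09% of all genes), and with androstenedione 0 did. Of these, FKBP5, SGK1, ZBTB16 and ERRFI1 are also on the androgen list. Estrogen targets (20 of 22 measured) had 0 calls with either compound and medians of -0.05 with DHEA and -0.00 with androstenedione. The hypoxia and glycolysis list (24 of 26 measured) had 1 call with DHEA, NDRG1, which is also raised by R1881, and 0 with androstenedione. On that list NDRG1, HK2, PFKFB3 and DDIT4 (4 of 24) lay below the R1881 arrays inside both clusters with DHEA (2.09% of all genes). Lists of steroid receptors and their partners, PXR and CAR, PPAR and AHR targets, pentose phosphate and NRF2 genes, the ATF4 response, chaperones of the endoplasmic reticulum, heat shock, immediate early genes, metallothioneins, p53 targets, mitosis, S phase and ribosome biogenesis had 0 calls with either compound by limma. Inside both clusters, 3 of 9 AHR targets lay below the R1881 arrays with DHEA (CYP1A1, CYP1A2 and TIPARP, 2.09% of all genes) and 3 of 9 with androstenedione (CYP1A1, CYP1A2 and CYP1B1, 7.38% of all genes), on the same R1881 arrays. CYP1A1, an oxidase of aromatic compounds, differed by -0.58 with DHEA and -0.48 with androstenedione (unadjusted p = 0.119 and 0.195). With androstenedione 6 of 26 mitotic genes also lay below in both clusters (CCNB1, CDK1, AURKA, BUB1, BUB1B and TTK, 7.38% of all genes). In the other direction, 5 of 30 ATF4 genes lay above (DDIT3, TRIB3, PHGDH, SLC3A2 and VLDLR, 3.91% of all genes).

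No enzyme that could convert the 2 precursors passed the test. Of 44 measured genes of a list of 49 steroid-converting enzymes, 0 were called with either compound (limma). The medians were -0.02 with DHEA and -0.00 with androstenedione. At an unadjusted limma p under 0.05, 1 of the 44 was lower with DHEA (HSD17B2, 0.565% of all genes in this direction). With androstenedione 1 of the 44 passed that limit (HSD11B1, 0.183% of all genes in each direction). HSD3B1 was near the array median of 6.72, at 6.58, 6.64 and 6.61 with DHEA, 6.71, 6.55 and 6.75 with androstenedione and 6.57 to 6.81 with R1881 alone, and HSD3B2 and HSD17B3, which reduces androstenedione to testosterone in the testis, were as dim. How far such dim probes lie above background is not known from the values used here. SRD5A1, a 5-alpha-reductase, was brighter, at 8.54, 8.23 and 7.91 with DHEA, 8.22, 8.56 and 8.27 with androstenedione and 8.0 to 8.56 with R1881 alone. HSD17B4, a peroxisomal dehydrogenase that oxidises steroids, lay between 9.92 and 10.53 with DHEA and between 10.15 and 10.45 with androstenedione. Of the glucuronosyltransferases and their partners (14 of 15 measured), 1 was lower with DHEA, UGT2B11 (0.0269% of all genes). UGT2B17 and UGT2B15, the main androgen-conjugating enzymes of the prostate, differed by -0.03 and -0.04 with DHEA and by 0.13 and 0.11 with androstenedione. Inside clusters A and B the androstenedione differences were 0.06 and -0.08 for UGT2B17 and -0.07 and -0.29 for UGT2B15. With DHEA they were -0.11 and 0.01 for UGT2B17 and -0.17 and 0.02 for UGT2B15.

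Most genes of cholesterol synthesis had positive differences with androstenedione, and none passed the threshold. Of 25 measured genes of a list of 30 on cholesterol synthesis and uptake, 0 were called (limma), 22 were positive, and the median log2 difference from R1881 alone was 0.60, against -0.013 over all genes. At an unadjusted p under 0.05, 6 of the 25 were higher (0.183% of all genes) and 0 lower, and 5 did not overlap the R1881 arrays on the high side (0.56% of all genes). Inside the clusters the medians were 0.51 (A) and 0.61 (B), 20 genes were positive in both, and 13 lay above the R1881 arrays in both (3.91% of all genes). These were ACAT2, HMGCS1, MVK, MVD, FDPS, SQLE, LSS, TM7SF2, MSMO1, NSDHL, EBP, DHCR7 and INSIG1. INSIG2 lay below in both clusters, as 7.38% of all genes did. The list median was 0.29 without androstenedione array 2.

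HMGCS1, the synthase of an early step of the pathway (chromosome 5, 43287470 to 43313412), had the smallest p of any gene on the list. Its levels were 11.49, 12.40 and 12.32 with androstenedione, 10.55 to 11.20 with R1881 alone (median 11.03) and 10.69 to 11.43 with DMSO (median 10.94). All 3 androstenedione arrays lay above the R1881 and DMSO arrays, with a difference from R1881 alone of 1.15 (SE 0.28, unadjusted p = 0.000113, adjusted p = 1), 0.88 inside cluster A and 1.53 inside cluster B. INSIG1, which retains the activator of the pathway in the endoplasmic reticulum when sterols are plentiful, had 11.43, 11.11 and 12.18 with androstenedione and 9.32 to 11.09 with R1881 alone (median 9.90), a difference of 1.45. LSS, the cyclase that forms lanosterol, had 9.58, 10.39 and 9.65 with androstenedione and 8.73 to 9.56 with R1881 alone (median 9.22), a difference of 0.71 that was 0.80 inside cluster A and 1.05 inside cluster B.

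Several other genes of the pathway overlapped between the groups until the array cluster was taken into account. NSDHL, a sterol dehydrogenase, had 10.04, 11.25 and 10.29 with androstenedione and 9.27 to 10.47 with R1881 alone (median 10.08), a difference of 0.60 over all arrays, 0.88 inside cluster A and 1.00 inside cluster B. DHCR7, which makes cholesterol in the last step, had 10.48, 11.64 and 10.96 with androstenedione and 9.42 to 10.62 with R1881 alone (median 10.01), and MVD, a mevalonate-pathway decarboxylase, had 9.06, 10.44 and 9.12 with androstenedione and 7.83 to 9.42 with R1881 alone (median 8.46). Both differed by 1.00. In a fit of the 4 groups with the array cluster as a block, chosen after seeing the data, 6 genes were called with androstenedione, all higher: NSDHL (0.90, adjusted p = 0.00236), LSS (0.89, 0.00599), DHCR7 (1.25, 0.0348), MVD (1.35, 0.0348), PLA2G3, a secreted phospholipase (1.00, 0.00599), and NPPC (0.88, 0.036). Over all alternatives the adjusted p of NSDHL ran from 8.13e-07 to 1.

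With DHEA the same list had a median of 0.21, 19 of 25 positive differences and 0 calls (limma, 0 at an unadjusted p under 0.05), with medians of 0.12 inside cluster A and 0.26 inside cluster B. In both clusters 5 genes lay above the R1881 arrays (1.29% of all genes): HMGCS1, NSDHL, TM7SF2, INSIG1 and SREBF1. HMGCS1 was at 11.23, 11.33 and 11.57 with DHEA, above the R1881 arrays (0.45, unadjusted p = 0.11). INSIG1 (0.84) and NSDHL (0.46) overlapped them. The difference between the compounds on this list was not tested, since the doses differed. LXR targets, which sterols induce through another receptor, had 0 calls with either compound, and ABCG1, a cholesterol exporter, differed by -0.27 with DHEA and by -0.36 with androstenedione. With androstenedione 4 of 12 LXR targets lay below the R1881 arrays inside both clusters (ABCA1, ABCG1, MYLIP and SMPDL3A, 7.38% of all genes). With DHEA 1 did (ABCG1, 2.09% of all genes), and SREBF1 lay above (1.29% of all genes).

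**Figure D4:**
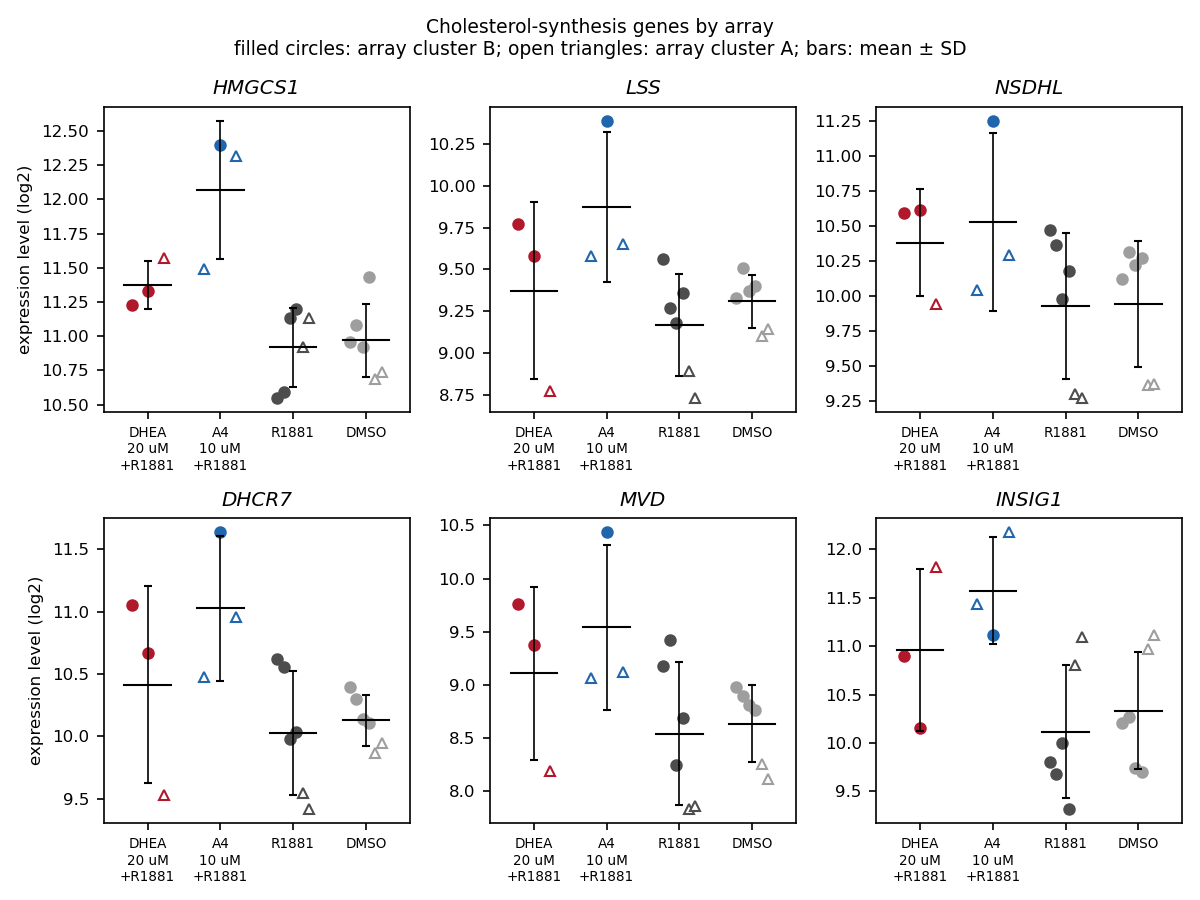
Log2 expression level of HMGCS1, LSS, NSDHL, DHCR7, MVD and INSIG1 in each array (y axis) for DHEA 20 uM with R1881, androstenedione (A4) 10 uM with R1881, R1881 alone and DMSO (x axis), with group means ± SD as bars, circles for array cluster B and triangles for cluster A. Triangles and circles sit apart within a group for most of these genes, and the androstenedione arrays lie above the R1881 arrays of the same cluster.

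Steroids of an equal dose were compared directly in 3 pairs, and p-values were also adjusted over these pairs. DHEA and finasteride, both at 20 uM, are both steroids, but finasteride carries a nitrogen in its A ring and a bulky amide on the D ring and is known as an inhibitor of 5-alpha-reductases. They differed in 1 gene (0.00538%), the cholesterol exporter ABCG1, with 7.06, 6.81 and 7.17 with DHEA, 8.18, 8.38 and 7.98 with finasteride and 7.15 to 7.42 with R1881 alone (median 7.30). DHEA was lower by 2.24-fold (-1.17, SE 0.22, 95% interval -1.60 to -0.73, adjusted p = 0.02, 0.0233 over the pairs), by -0.81 inside cluster A and -1.34 inside cluster B. With the replicate number as a block the call held over all arrays (1 gene) and was lost in a fit of these 2 groups alone (adjusted p = 0.999). It held in 1 of 6 omissions of a single array (without finasteride array 3), with adjusted p-values of 0.0192 to 0.833, and the most variable ABCG1 probe, which is dim, gave 0.16. On the androgen genes no difference passed, with DHEA minus finasteride at -0.07 for UGT2B11 (95% interval -0.38 to 0.24), -0.07 for DIO2 (-0.60 to 0.46), -0.08 for FKBP5 (-0.73 to 0.56) and -0.19 for SGK1 (-1.17 to 0.80). HMGCS1 was at 11.23, 11.33 and 11.57 with DHEA and at 10.67, 10.80 and 10.24 with finasteride (0.80, unadjusted p = 0.0158, adjusted p = 1).

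Cyproterone acetate, an antiandrogen built on a progesterone skeleton, gave 0 genes past the threshold against DHEA at 20 uM (limma, 31 higher and 97 lower at an unadjusted p under 0.05). Among the named genes the smallest p belonged to UGT2B11, with 6.81, 6.66 and 7.09 with DHEA and 7.47, 7.53 and 7.43 with cyproterone acetate (-0.62, 95% interval -0.93 to -0.31, unadjusted p = 0.00015, adjusted p = 1, 0.758 over the pairs). FKBP5 was at 9.79, 9.81 and 9.75 with DHEA and at 11.03, 10.79 and 10.79 with cyproterone acetate (-1.08, 95% interval -1.73 to -0.44). SGK1 differed by -1.03 (95% interval -2.01 to -0.04) and CLDN8 by -0.02 (-0.64 to 0.61). For the first 3 of these genes the groups did not overlap, as was so for 2.48% of all genes on the low side.

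Androstenedione and progesterone, both at 10 uM, share the A ring with its ketone and differ on the D ring, where progesterone has an acetyl group in place of the ketone. They differed in 2 genes. UGT2B11 was higher with androstenedione (0.00538% of genes), at 8.41, 8.28 and 8.18 with androstenedione and 7.40, 7.53 and 7.34 with progesterone (0.87, SE 0.15, 95% interval 0.56 to 1.18, adjusted p = 0.00684, 0.0205 over the pairs). ABCG1 was lower (0.00538%), at 6.98, 6.78 and 7.0 with androstenedione and 8.06, 8.28 and 7.90 with progesterone (-1.16, SE 0.22, 95% interval -1.59 to -0.72, adjusted p = 0.0116, 0.0233 over the pairs). All progesterone arrays lay in cluster B, where androstenedione had 1 array, and there the differences were 0.86 and -1.30. The UGT2B11 call held in 3 of 6 omissions of a single array (adjusted p 0.00287 to 0.135) and the ABCG1 call in 2 of 6 (0.00795 to 0.303). The number of genes called was 51 without progesterone array 1, 39 without progesterone array 2, 0 without progesterone array 3, androstenedione array 1 or androstenedione array 2, and 1 without androstenedione array 3. Progesterone array 3 correlated with its cluster at 0.884, under the minimum of 0.9.

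Genes that did not pass between androstenedione and progesterone included DIO2 (1.20, 95% interval 0.67 to 1.73, adjusted p = 0.141) and CLDN8 (1.11, 0.48 to 1.73, adjusted p = 0.603). FKBP5 (0.18, -0.46 to 0.83) and HMGCS1 (0.17, -0.48 to 0.81) had intervals on both sides of 0. HMGCS1 was at 11.49, 12.40 and 12.32 with androstenedione and at 11.57, 11.58 and 12.56 with progesterone, and the groups overlapped. On the cholesterol list the median difference between them was 0.02, with 13 of 25 positive.

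**Figure D5:**
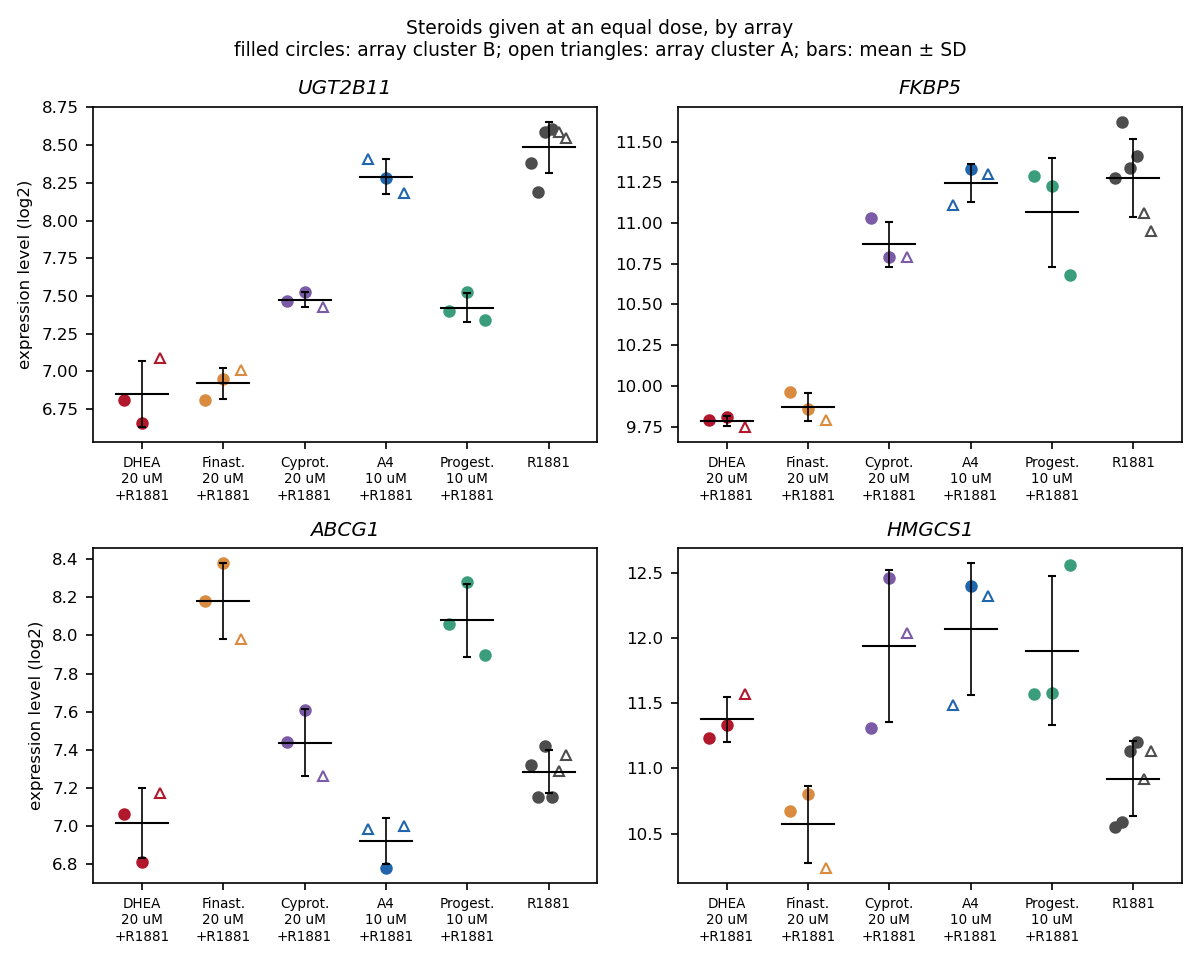
Log2 expression level of UGT2B11, FKBP5, ABCG1 and HMGCS1 in each array (y axis) for DHEA, finasteride and cyproterone acetate at 20 uM, androstenedione (A4) and progesterone at 10 uM, all with R1881, and for R1881 alone (x axis), with group means ± SD as bars, circles for array cluster B and triangles for cluster A. ABCG1 lies between 6.78 and 7.17 with DHEA or androstenedione and between 7.90 and 8.38 with finasteride or progesterone.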

How the data were processed

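Expression in LAPC4 cells was measured on Illumina HT-12 v4 arrays, read on an iScan and processed in GenomeStudio and Partek per the series' design text. The values as deposited by the authors are log2 intensities (48107 probes, 96 arrays, 30 groups, 6.32 to 14.2), and the array medians of 6.7211 to 6.7212 show that the authors had normalized between arrays. How background was corrected is not stated in what was used here. Per the submitters' processing notes the tools included limma, with no version stated. Arrays give no depth, so their number (3 or 6 per group) limits the precision. Gene symbols came from the platform annotation (30113 probes with 1 symbol, 17986 not listed).

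Probes above the array median in at least 3 arrays were kept (43820), the brightest probe stood for its gene (18571 genes), and limma 3.58.1 in R 4.3.3 was fitted to all 96 arrays with a coefficient per group. P-values were Benjamini-Hochberg adjusted with a threshold of 0.05, and over the 3 equal-dose pairs as well. Adjusted and unadjusted p-values in the text are from this limma fit unless another is named. Tested on simulated data for DHEA against R1881 alone over 18571 genes, it recovered 59 of 100 genes changed by a log2 value of 1 and 99 of 100 changed by 2, with 12 false calls. The simulated arrays had independent normal noise for each gene and array, without array clusters, arrays that stand apart or repeat runs. These counts therefore check the fit and do not give its error rates on the real arrays.

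The members and gene lists were chosen with earlier results of these data known. Named genes were those past the threshold (by size, up to 12 per direction, or 6 for an equal-dose pair) or, where under 10 passed, those with the smallest p, the genes R1881 changed, the called and largest members of each list, and genes that an earlier account of these data names. Labels number 3 arrays per group and give the controls a set b. Nothing in the labels ties arrays to the separate days of the 3 experiments, so p-values measure the spread between arrays. Same-numbered deviations correlated at 0.78, 0.67 and 0.85 (DHEA with R1881), 0.72, 0.72 and 0.89 (R1881 with DMSO), 0.16, 0.57 and 0.55 (DHEA with finasteride) and 0.78, 0.48 and 0.80 (DHEA with cyproterone acetate). In these groups arrays of the same number also lay in the same array cluster, so number and cluster cannot be told apart. The main fit used no pairing, and the replicate number was a block in alternative fits only. Control arrays such as 1 and 1b differed little in 5 pairs (SD of the difference 0.0929 to 0.17) and may be repeat runs. In the remaining pair, R1881 arrays 2 and 2b, the SD was 0.346, the same as between R1881 arrays 2 and 3. All control arrays were used as separate samples. With those of the same number averaged, UGT2B11 and DIO2 remained called with DHEA.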

Additional observations from a re-analysis of the deposited data

Results flagged for a closer look

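HPGD, which encodes the enzyme that inactivates prostaglandins, read 6.74 in DMSO array 1, below the 6.88 of the nearest of the other 5 DMSO arrays, a gap that made up 0.642 of the group's range and exceeded Dixon's critical value for 6 arrays. It was 1 of 62 gene and group pairs tested over 31 genes, and chance flags about 1 in 20.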

How the results depend on the processing

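The number of genes called depended on the fit more than the direction of single genes did, and the cause was not tested. DHEA against R1881 alone gave 5 calls, and 8 with the mean of all probes, 14 with cyclic loess, 16 with the 4 groups only, 33 with array weights, 65 without the arrays that stand apart and with the array cluster as a block, 10 with that block on all arrays, 52 with it on the 4 groups, 9 with the replicate block, 34 with the replicate block on the pair of groups, and 2 with control arrays averaged, with 1 to 3 only or with 1b to 3b only. Androstenedione against R1881 alone gave 0, and 24 with array weights, 9 without the apart arrays and with the cluster block, and 6 with the 4 groups and that block. R1881 against DMSO gave 23, and 60 with cyclic loess, 75 with the 4 groups, 146 with array weights, 231 without the apart arrays and with the block, 40 with the block on all arrays, 200 with it on the 4 groups, 274 with the replicate block on the pair, and 5, 5 and 6 with controls averaged, 1 to 3 only and 1b to 3b only. DHEA against DMSO gave 0, and 1 with the 4 groups, array weights or the paired replicate block, and 3 without the apart arrays and with the block or with the 4 groups and the block. Androstenedione against DMSO gave 10, and 38 with cyclic loess, 52 with the 4 groups, 576 with array weights, 170 without the apart arrays and with the cluster block, 26 and 130 with the cluster block on all arrays and on the 4 groups, 18 and 100 with the replicate block on all arrays and on the pair, and 6 under each treatment of the control arrays. DHEA against finasteride gave 1, and 0 with the mean or the most variable probe or the paired replicate block, 3 with array weights or without the apart arrays and with the cluster block, and 2 with a trended robust fit. DHEA against cyproterone acetate gave 0, and 1 with cyclic loess, 6 with array weights and 17 without the apart arrays and with the cluster block. Androstenedione against progesterone gave 2, and 1 with the mean or the most variable probe, 5380 with array weights, 9 without the apart arrays and with the cluster block, and 0 with the paired replicate block.

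Leaving out 1 array gave 2 to 6 calls for DHEA and 0 to 0 for androstenedione against R1881 alone, 19 to 23 for R1881, 0 to 0 for DHEA and 6 to 9 for androstenedione against DMSO, 0 to 2 for DHEA against finasteride, 0 to 0 for DHEA against cyproterone acetate and 0 to 51 for androstenedione against progesterone. Signs turned in 23 of the values of single genes. These were ABCG1 between DHEA and finasteride (0.16, most variable probe), NDRG1 (0.84 inside cluster A, 0.05 with controls 1 to 3, 0.06 without DHEA array 1, 0.01 without DMSO array 2b) and UGT2B11 (-0.05 without DHEA array 3 and inside cluster B) between DHEA and DMSO. Between androstenedione and R1881 alone they were FKBP5 (0.00 with cyclic loess, 0.06 without the apart arrays and with the cluster block, 0.02 with that block on all arrays and with controls 1 to 3, 0.03 with the 4 groups and the block, 0.04 without androstenedione array 1 or R1881 array 1b, 0.20 inside cluster A), C1orf116 (0.06, 0.05 and 0.01 in those 3 block fits, 0.00 and 0.19 inside clusters A and B), S100P (-0.03 without androstenedione array 2), SGK1 (-0.06 with the block on all arrays) and NDRG1 (0.10 inside cluster B). Over single omissions these differences ran from -0.05 to 0.17 (UGT2B11) and -0.31 to 0.06 (NDRG1) for DHEA against DMSO, and from -0.03 to 0.39 (S100P) and -0.09 to 0.04 (FKBP5) for androstenedione against R1881 alone. Of the rest, 1525 kept direction and side of the threshold, 121 passed it newly and 73 lost it. Same-numbered arrays of androstenedione and R1881 correlated at -0.51, 0.62 and 0.91, and of androstenedione and progesterone at 0.53, -0.26 and -0.38, so a shared number did not bring a like deviation throughout. A fit of the 4 groups could not be had for the equal-dose pairs, nor values inside cluster A for progesterone.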
